A study of Mus musculus with 2 samples.

Results

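The guanylate-binding proteins of the mouse were described here through 9 genes, Gbp2, Gbp2b, Gbp3, Gbp4, Gbp5, Gbp6, Gbp7, Gbp8 and Gbp9, out of 32285 genes counted per library. They were taken by symbol, and the family was selected on earlier results of these same data, namely higher UMI counts in cells from nanoparticle-treated mice, so the ratios below are a description and carry no test. The data were single-cell RNA sequencing (10x Genomics) of dissociated lungs from female BALB/cJ mice, 12 weeks old per the labels, which the methods of the study give as the age at inoculation. All had been inoculated with 100000 4T1 cells, a mouse line of metastatic triple-negative breast cancer, named 4T1-luc2-tdTomato in those methods. One group received intravenous saline and the other intravenous PLG nanoparticles (NP, particles of poly(lactide-co-glycolide) without cargo), every 3 days from day 1 for 5 doses, and lungs were taken at day 14. Each group is 1 library made from pooled mice, 4 per the labels while the methods of the study give another number, so the spread between mice could not be measured and an effect of NP cannot be told apart from a difference between the pools or libraries. Intervals given below are 95% and cover counting error only.

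Guanylate-binding proteins are large GTPases of the dynamin superfamily that cells make in quantity after interferon, above all interferon gamma. They gather on the membranes of vacuoles that hold microbes and on bacteria in the cytosol, where they help to break the membrane and feed microbial ligands to inflammasomes. Gbp2, Gbp2b (long called Gbp1) and Gbp5 carry a prenyl anchor at their C terminus, and Gbp2 and Gbp5 are known for their part in inflammasome activation.

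The genes lie in 2 clusters in the GENCODE M21 annotation of GRCm38. Gbp5, Gbp7, Gbp3, Gbp2b and Gbp2 follow each other on the plus strand of chromosome 3 between 142493978 and 142638008, a span of 144 kb. Gbp8, Gbp9, Gbp4 and Gbp6 lie on the minus strand of chromosome 5 between 105014150 and 105293698, a span of 280 kb, and the models of Gbp8, Gbp9 and Gbp4 overlap. RefSeq promoter windows on GRCm38.p6, from 250 bases before to 50 bases after the start, were matched for 5 of the 9 genes, those on chromosome 3. They are shown because the letters that factors of interferon signalling are known to bind can be read in them. Capitals mark 2 motifs searched on both strands, the interferon-stimulated response element (ISRE: GAAA, any 2 bases, then GAAA, here present as its reverse complement) and the gamma-activated site (GAS: TTC, any 3 bases, then GAA), which share no position below.
Gbp2, chr3:142620413-142620712, + strand: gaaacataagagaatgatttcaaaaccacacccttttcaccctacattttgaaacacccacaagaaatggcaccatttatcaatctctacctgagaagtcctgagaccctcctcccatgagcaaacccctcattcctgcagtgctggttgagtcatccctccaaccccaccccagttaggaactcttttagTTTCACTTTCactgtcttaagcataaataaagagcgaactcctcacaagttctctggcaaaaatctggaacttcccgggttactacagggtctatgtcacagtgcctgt
Gbp2b, chr3:142594597-142594896, + strand: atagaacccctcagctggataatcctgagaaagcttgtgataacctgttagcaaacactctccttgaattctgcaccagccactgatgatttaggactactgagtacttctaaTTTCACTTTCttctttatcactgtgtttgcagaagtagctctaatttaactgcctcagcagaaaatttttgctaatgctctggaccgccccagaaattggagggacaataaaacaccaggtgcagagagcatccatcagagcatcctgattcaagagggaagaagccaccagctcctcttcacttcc
Gbp3, chr3:142559794-142560093, + strand: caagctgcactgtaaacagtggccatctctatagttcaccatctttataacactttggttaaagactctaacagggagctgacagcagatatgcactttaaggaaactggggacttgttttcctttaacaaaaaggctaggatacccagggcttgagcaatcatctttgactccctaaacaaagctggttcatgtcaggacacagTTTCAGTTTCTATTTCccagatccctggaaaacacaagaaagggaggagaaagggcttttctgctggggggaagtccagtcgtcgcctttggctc
Gbp5, chr3:142496684-142496983, + strand: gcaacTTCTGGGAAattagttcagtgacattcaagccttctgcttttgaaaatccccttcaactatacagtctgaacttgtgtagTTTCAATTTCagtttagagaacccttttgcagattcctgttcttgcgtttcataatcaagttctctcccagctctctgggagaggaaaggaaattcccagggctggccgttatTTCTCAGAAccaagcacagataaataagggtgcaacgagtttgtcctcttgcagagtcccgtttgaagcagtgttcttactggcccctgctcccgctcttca
Gbp7, chr3:142530086-142530385, + strand: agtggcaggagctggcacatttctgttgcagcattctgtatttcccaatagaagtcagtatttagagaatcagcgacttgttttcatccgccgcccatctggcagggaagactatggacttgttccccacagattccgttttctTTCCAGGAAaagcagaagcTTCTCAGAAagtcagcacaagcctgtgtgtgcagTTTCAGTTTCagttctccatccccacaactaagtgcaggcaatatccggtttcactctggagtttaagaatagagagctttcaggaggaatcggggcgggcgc
An ISRE match was present in all 5 of these genes, against 3.44% of 32851 promoter windows of the same length (1131 windows). It began 59 bases before the start in Gbp2, 137 in Gbp2b, 165 in Gbp5 and 53 in Gbp7, and Gbp3 held a pair of overlapping matches that began 45 and 39 bases before the start. A second RefSeq window of Gbp3 held no match. GAS matches were found in Gbp5 and Gbp7, with 2 in each, against 8.30% of all windows, and both motifs together were found in 0.454% of all windows. A match is a run of letters and was not measured as a bound site. Gbp4, Gbp6, Gbp8 and Gbp9 had no entry in the table.

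Barcodes were kept as cells if 500 to 5000 genes were detected and mitochondrial transcripts made up less than 7.5%, which left 8662 saline and 8333 NP cells, with a median of 6474.5 and 6008 UMIs (unique molecular identifiers, 1 per captured transcript), and 21 barcode sequences occurred in both libraries. Cells were clustered and the clusters named from marker genes, so that each name below stands for cells like that type, and 314 saline and 493 NP cells stayed unnamed. In the 10 classes with at least 50 cells in both libraries, 10 to 16 of the marker genes of a class were detected in at least 10% of its own cells. The make-up differed, with neutrophils at 64.4% of saline and 36.6% of NP cells and endothelial cells at 5.03% and 18.8%. A level is the number of UMIs of a gene per 1000000 UMIs of the class (CPM). It is not scaled to gene length, so levels are compared between classes and libraries and not between genes.

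Among these 10 classes, the family was carried in saline lungs at its highest level by endothelial cells, the lining of the vessels, and by T and NK cells. The 9 genes added up to 476 CPM in endothelial cells, 362 CPM in T cells and 330 CPM in NK cells, and the intervals of the last pair overlapped. Fibroblasts and mural cells (145), non-classical monocytes (141), classical monocytes (137), alveolar macrophages (122) and neutrophils (120 CPM) followed with overlapping neighbours, then B cells (102 CPM), with epithelial cells last at 22.0 CPM from 15 UMIs. The 36 saline mesothelial cells, too few to be 1 of the 10 classes, stood at 606 CPM. Single genes had their own order over the 10 classes. Gbp4, a chromosome 5 gene, stood at 152 CPM in endothelial cells, 101 in NK cells and 92.5 in T cells but at 2.25 in classical monocytes and 0.354 in neutrophils. Gbp8 was highest in NK cells (40.7 CPM) and T cells (32.1 CPM), then in alveolar macrophages (16.6 CPM), and stood at 0.167 CPM in neutrophils. Gbp6 was led by T cells (12.8 CPM) and endothelial cells (11.9 CPM), whose intervals overlapped, and had no UMI in 5582 neutrophils. Gbp3 was led by classical monocytes (34.1 CPM), non-classical monocytes (27.6 CPM) and endothelial cells (26.0 CPM) with overlapping intervals. Gbp2, Gbp2b, Gbp7 and Gbp9 were highest in endothelial cells, and only for Gbp2b did the interval of the first class clear that of the next, neutrophils (61.0 against 44.4 CPM). Gbp5 was low in each of the 10 classes in saline, at most 15.1 CPM in NK cells.

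**Figure D1:**
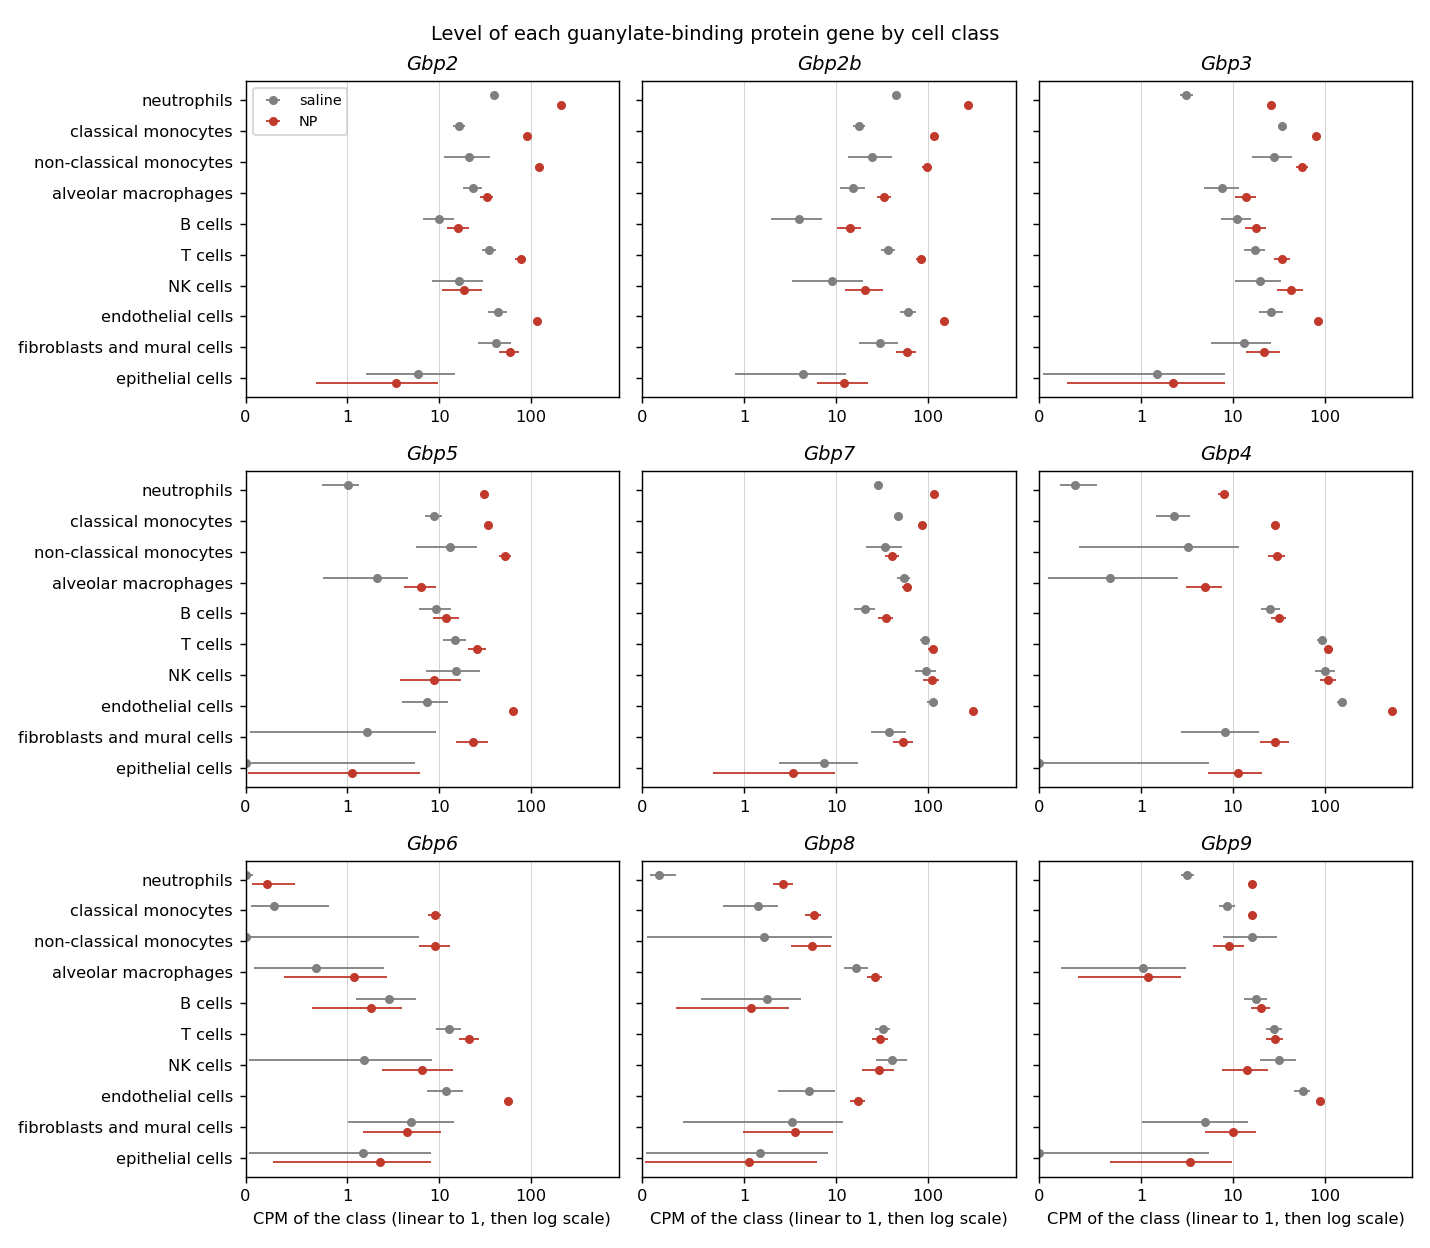
Level of each of the 9 genes in the 10 classes with at least 50 cells per library, as CPM of the class on an axis that is linear to 1 and logarithmic above. Points are the pooled level of 1 library, bars the 95% counting interval, grey saline and red NP; Gbp4 in endothelial cells moves from 152 to 541 CPM while in NK cells it stands at 101 and 109 CPM.

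In neutrophils the family was higher in NP by 2.52 on the log2 scale (interval 2.48 to 2.56), from 5739 UMIs in 5582 cells to 16394 UMIs in 3046 cells, or from 120 to 686 CPM. Of 8 members with at least 20 UMIs over both libraries, 8 were at least 2-fold higher, where 4.31% of 11086 genes were. Gbp2b went from 44.4 to 276 CPM (2.64, 2.56 to 2.71) and Gbp2 from 39.1 to 211 CPM (2.43, 2.35 to 2.51), so both were the most counted of the family in each library. Gbp7, which is known to act on microbial vacuoles, went from 28.3 to 116 CPM (2.04, 1.95 to 2.14) and had the lowest ratio of the 8. The highest ratios belonged to genes with almost no signal in saline. Gbp5 had 49 UMIs in saline and 733 in NP (1.02 and 30.7 CPM), a log2 ratio of 4.91 (4.49 to 5.36), and ranked 3 among the 11086 genes. Gbp4 had 17 and 189 UMIs (4.48, 3.76 to 5.29) and ranked 4, and Gbp8 had 8 and 63 UMIs (3.98, 2.92 to 5.26). Gbp3 stood at 3.08 and 25.8 CPM (3.07) and Gbp9 at 3.17 and 16.0 CPM (2.34). Gbp6 had 5 UMIs in NP and none in saline. The median log2 ratio of the 8 members was 2.85, beside -0.13 for all genes tested in the class. Endothelial markers, summed over 15 genes, stood at 19.8 CPM in saline and 42.3 CPM in NP neutrophils. Of these, 14 were higher in NP and none was at 0. The share taken as free RNA (below), set from endothelial genes, was 2.95% in saline and 1.80% in NP neutrophils. Gbp4 stood at 10.3 and 83.7 CPM in free RNA, against 0.354 and 7.91 CPM in neutrophils. Over the alternatives, with free RNA subtraction among them and counts under 3 set to 3, the Gbp4 ratio ran from 3.62 to 6.66. Both ends lie outside its interval, while the Gbp8 ratio ran from 3.12 to 5.10, within its own. The part of endothelial transcripts in both ratios was not tested further.

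In classical monocytes the family stood at 137 CPM in saline and 467 CPM in NP (1.77, 1.69 to 1.85). Of the 9 members, 7 were at least 2-fold higher, against 2.83% of 11134 genes, and the median ratio was 2.01 beside -0.05 for all genes. Gbp6 went from 3 UMIs in 668 cells to 158 UMIs in 1080 cells, a ratio of 4.98 (3.41 to 7.27) that ranked 2 in the class. Gbp4 went from 24 to 509 UMIs (3.67, 3.08 to 4.32), from 2.25 to 28.6 CPM. Gbp2b and Gbp2 had ratios of 2.70 and 2.48, near those in neutrophils, and Gbp8 (2.01), Gbp5 (1.96) and Gbp3 (1.25) lay lower. Gbp7 (47.3 and 85.2 CPM, 0.85) and Gbp9 (8.64 and 16.2 CPM, 0.91) were under 2-fold. These values combine cells of different clusters in the 2 libraries, among them m1 (below), whose markers scored for both monocyte classes. When each cluster was weighted by its share of saline monocyte UMIs, an alternative chosen after seeing the data, the family ratio was 1.10. Then 5 of the 9 members were at least 2-fold higher, and the share of all genes under this weighting was not counted. Neutrophil markers summed to 5026 CPM in saline and 2138 CPM in NP classical monocytes, with 2 of 16 higher in NP and none at 0. Endothelial markers summed to 31.4 and 43.6 CPM, 13 of 15 higher in NP, and T-cell markers to 6.57 and 28.3 CPM, 14 of 14 higher. The part of these markers in the ratios was not tested.

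Non-classical monocytes, a class of 91 saline and 354 NP cells, had a family level of 141 and 424 CPM (1.59, 1.27 to 1.92). There, 5 of 8 members were at least 2-fold higher, against 3.58% of 8385 genes, with a median of 1.51 beside -0.03 for all genes. Gbp2 had 13 UMIs in saline and 381 in NP (21.1 and 123 CPM, 2.55, 1.75 to 3.47), Gbp5 8 and 162 UMIs (2.01, 1.00 to 3.25) and Gbp2b a ratio of 2.00. Gbp4 had 2 and 93 UMIs, a ratio as counted of 3.21 (1.32 to 6.28). Gbp6 had none and 28 UMIs, 1.86-fold higher when 3 UMIs stand for the saline count, with a lower counting limit of 1.42-fold. Gbp7 stood at 34.0 and 41.0 CPM (0.27, -0.40 to 1.01) and Gbp9 at 16.2 and 9.05 CPM (-0.84, -1.93 to 0.36), whose intervals include no difference. The saline class held 87 family UMIs in all, which limits each of these values. Its median depth was 6332 UMIs against 8042 in NP. Endothelial markers summed to 233 CPM in saline and 260 CPM in NP, 12 of 15 higher. Neutrophil markers summed to 2103 and 1043 CPM, 4 of 16 higher, and the part of both was not tested.

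Of the 10 classes, endothelial cells held the highest family level in both libraries, 476 CPM in 436 saline and 1429.8 CPM in 1563 NP cells (1.59, 1.48 to 1.69). Of 9 members, 8 were at least 2-fold higher, against 2.25% of 11497 genes, and the median was 1.71 beside -0.05 for all genes. Gbp4 was the most counted, with 269 UMIs in saline and 3603 in NP (152 and 541 CPM, 1.83, 1.65 to 2.02). Gbp7 went from 112 to 311 CPM (1.47) and Gbp2b from 61.0 to 151 CPM (1.30). Gbp5 went from 13 to 424 UMIs (7.34 and 63.7 CPM, 3.12, 2.33 to 4.04) and ranked 4 in the class, and Gbp6 from 11.9 to 56.2 CPM (2.24). Gbp8 (1.76), Gbp3 (1.71) and Gbp2 (1.43) lay between, while Gbp9 stood at 57.0 and 88.0 CPM (0.63, 0.32 to 0.94) and ranked 690. In these cells the neutrophil markers summed to 11521 CPM in saline and 4179 CPM in NP, 2 of 16 higher and none at 0, and their part was not tested.

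The ratios in lymphocytes were smaller. T cells stood at 362 and 523 CPM for the family (0.53, 0.42 to 0.64), and 2 of 9 members were at least 2-fold higher, against 2.37% of 9861 genes: Gbp2b (1.19) and Gbp2 (1.13). Gbp4, the gene with the most UMIs in saline T cells, stood at 92.5 and 109 CPM (0.24, 0.01 to 0.46), and Gbp8 (-0.08) and Gbp9 (0.01) had intervals that span 0. NK cells, which with T cells held nearly all Ifng UMIs, stood at 330 and 359 CPM for the family (0.12, -0.13 to 0.37). In them 2 of 7 members were at least 2-fold higher, Gbp2b (1.19, -0.19 to 2.80) and Gbp3 (1.11, 0.17 to 2.14), against 2.70% of 7005 genes, and Gbp9 was 2-fold lower with 21 and 13 UMIs (-1.17, -2.29 to -0.10). B cells stood at 102 and 149 CPM (0.54, 0.33 to 0.76), where Gbp2b alone of 7 members was 2-fold higher (11 and 47 UMIs, 1.85, 0.88 to 2.94), against 1.40% of 9495 genes.

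Alveolar macrophages, the resident phagocytes of the airspace, stood at 122 and 179 CPM (0.56, 0.37 to 0.74). Of 7 members, 3 were at least 2-fold higher, against 1.39% of 9837 genes: Gbp4 (2 and 21 UMIs, 2.82 as counted, 0.79 to 5.96), Gbp5 (6 and 27 UMIs, 1.60) and Gbp2b (15.3 and 33.2 CPM, 1.12). Gbp7 stood at 54.4 and 58.9 CPM (0.11, -0.18 to 0.41), and Gbp8 at 16.6 and 26.4 CPM (0.67). A single NP cell in this class held 87 of its 765 family UMIs. Fibroblasts and mural cells stood at 145 and 263 CPM (0.86, 0.51 to 1.22), and 2 of 6 members were at least 2-fold higher, against 4.84% of 8588 genes: Gbp5 (1 and 26 UMIs, 3.83 as counted, 1.22 to 9.18) and Gbp4 (5 and 32 UMIs, 1.80, 0.43 to 3.52). Epithelial cells had 15 and 36 family UMIs and no member with 20.

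**Figure D2:**
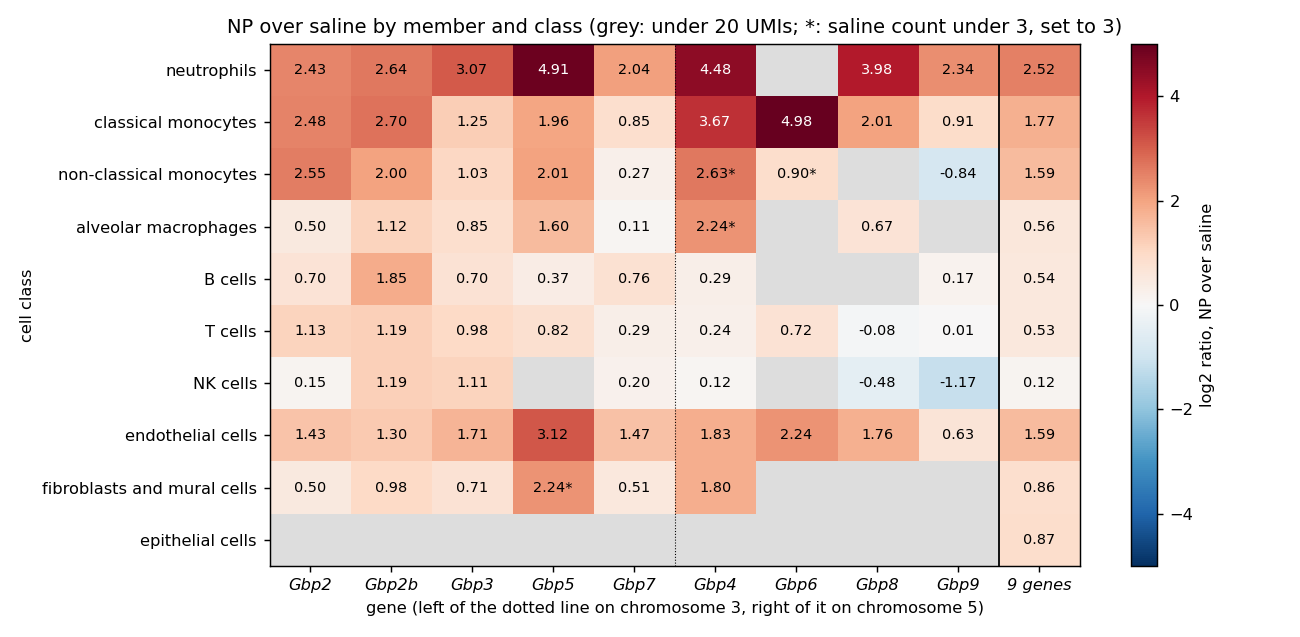
Log2 ratio of NP over saline for each gene (columns) and for the 9 genes added up (last column) in 10 cell classes (rows), on a colour scale from blue (lower in NP) to red (higher). Grey marks fewer than 20 UMIs over both libraries and an asterisk a saline count under 3, set to 3; the deepest red lies in Gbp5 and Gbp4 of neutrophils (4.91 and 4.48) and Gbp6 of classical monocytes (4.98).

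The same gene could have a different ratio in each class. The counting interval of the ratio lay above 0 for 8 of 8 members in neutrophils (12.8% of all genes measured there), 9 of 9 in classical monocytes (12.8%), 9 of 9 in endothelial cells (5.25%) and 7 of 9 in T cells (8.8%). It did so for 6 of 8 in non-classical monocytes (6.42% of all genes), 6 of 7 in alveolar macrophages (5.32%), 4 of 7 in B cells (4.88%), 3 of 6 in fibroblasts and mural cells (6.32%) and 1 of 7 in NK cells (4.97%). Gbp2 had ratios of 2.43 to 2.55 in the neutrophil and monocyte classes, 1.43 in endothelial cells and 0.15 in NK cells (-1.03 to 1.39). Gbp4 ranged from 4.48 in neutrophils to 0.12 in NK cells, where it stood at 101 CPM in saline. In endothelial cells it stood at 152 CPM in saline and 541 CPM in NP. Gbp7 was 4.11-fold higher in neutrophils and 1.08-fold in alveolar macrophages, which stood at 54.4 CPM in saline. In endothelial cells it stood at 112 and 311 CPM, and a link between saline level and ratio was not tested. In NP the order of the classes was another one. Neutrophils led for Gbp2 (211 CPM) and Gbp2b (276 CPM), each with an interval clear of the next class. Endothelial cells led for Gbp4, Gbp6, Gbp7 and Gbp9, likewise clear of the next class, and for Gbp3 and Gbp5 with overlap with classical and non-classical monocytes. For Gbp8, T cells (30.3 CPM), NK cells (29.3 CPM) and alveolar macrophages (26.4 CPM) could not be ordered.

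The make-up of the family differed between classes. Gbp2 and Gbp2b held 32.7% and 37.1% of the family UMIs of saline neutrophils and 30.7% and 40.2% of those of NP neutrophils. In endothelial cells Gbp4 held 31.9% and 37.8%, while in neutrophils it held 0.296% and 1.15%. In classical monocytes Gbp7 went from 34.5% to 18.2% and Gbp2b from 13.02% to 24.9%. Gbp2b made up 53.2% of the UMIs of the Gbp2 and Gbp2b pair in saline neutrophils (51.6 to 54.7%) and 56.7% in NP neutrophils (55.8 to 57.6%). The cells that carried each gene also shifted. T cells held 38.5% of the Gbp4 UMIs of the saline library and 6.06% of those of the NP library, and 42.1% and 8.93% of the Gbp6 UMIs. Endothelial cells held 31.8% and 66.0% of the Gbp4 UMIs and 19.6% and 52.2% of the Gbp6 UMIs. Such shares also follow the number of cells, and endothelial cells were 5.03% of saline and 18.8% of NP cells. Neutrophils held 71.5% of the Gbp2 UMIs in saline and 54.4% in NP.

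**Figure D3:**
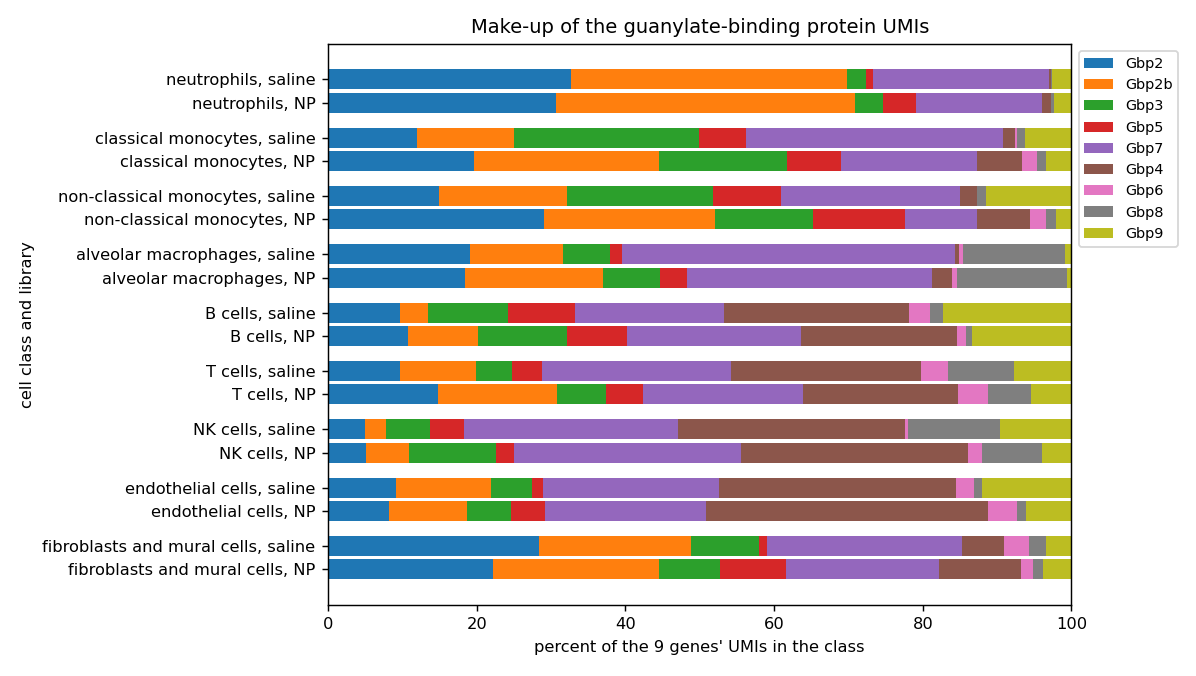
Percent of the 9 genes' UMIs that each gene contributes, in 9 classes, with the saline library above the NP library in each pair. The Gbp2 and Gbp2b blocks fill most of both neutrophil bars, the Gbp4 block is the widest one of both endothelial bars at 31.9% and 37.8%, and the Gbp7 block of classical monocytes narrows from 34.5% to 18.2%.

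Because the classes were present in unlike numbers, the level over all cells mixed abundance with expression. The family went from 145 to 594 CPM over all cells (2.03). Abundance was taken here as the share of a class in the UMIs of its library, so it holds depth as well as cell number. With the saline abundance of each class kept and the levels of NP used, the ratio was 2.06. With the levels of saline and the abundance of NP it was 0.24. Gbp4 had 2.79 over all cells, 1.61 from levels and 1.04 from abundance. Gbp2 had 1.92 over all cells, 2.26 from levels and -0.21 from abundance.

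Within neutrophils the level of the family followed the cluster. The 9 genes and the interferon lists had been left out of the genes used for clustering. Cluster c0, led by Saa3, Il1b, Steap4 and Cxcr2, stood at 252 CPM in saline and 1891 CPM in NP (2.91, 2.82 to 2.99). Cluster c8, led by the granule genes Ngp, Camp and Ltf and by Ly6g, stood at 16.6 and 41.0 CPM (1.31, 1.04 to 1.58), and c31, which adds the cell-cycle genes Ube2c and Top2a, had 3 and 6 family UMIs. Between them, c1 stood at 244 and 1033 CPM, c2 at 150 and 912 CPM, c5 at 115 and 307 CPM and c7 at 85.2 and 196 CPM. Median depth ran the other way in saline, from 3494 UMIs in c0 to 10469 in c5, 12812 in c7 and 23085 in c8. Saline c0 held 1267 family UMIs in 1389 cells, c5 849 in 677, c7 812 in 709 and c8 187 in 483. NP c0 held 8069 in 1126 cells, c5 1278 in 386, c7 244 in 99 and c8 286 in 324. The saline order of c0, c5 and c7 by CPM is therefore not that of family UMIs per cell. In c0 Gbp5 went from 30 to 554 UMIs (5.97 and 130 CPM) and Gbp4 from 5 to 135 UMIs, while in c8 Gbp5 had none and 2 UMIs. Cluster c0 held 24.9% of saline and 37.0% of NP neutrophils, c2 23.5% and 8.93%, and c7 12.7% and 3.25%. With each cluster's share of saline neutrophil UMIs kept, an alternative chosen after seeing the data, the neutrophil ratio was 2.26.

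Among classical monocytes, m1, whose leading genes include Aif1, H2-Aa and H2-Eb1, stood at 140 and 675 CPM (2.27, 2.04 to 2.50), and Gbp2 went from 11 to 753 UMIs in it. This cluster scored 3.13 for classical and 2.54 for non-classical monocytes. It kept the classical name because the limit of 0.75 was not applied between these classes. Cluster m2 (Thbs1, F13a1) stood at 394 CPM in saline and 638 CPM in NP (0.70, 0.51 to 0.89). Cluster m5 (Apoe, Chil3) stood at 141 and 145 CPM (0.04, -0.25 to 0.32). Clusters m4 and m5 held 34.7% and 24.1% of saline monocytes but 4.35% and 6.67% of NP monocytes, and m1 and m2 went from 11.8% and 5.69% to 30.3% and 30.6%. Endothelial clusters had near equal shares, 60.8% and 61.0% for c3 and 30.3% and 28.0% for c10. Cldn5 and the capillary genes Gpihbp1 and Cd36 were among the leading genes of c3, which went from 573 to 1657 CPM. Cluster c10, with shallower cells and the same Cldn5 and Ramp2, went from 260 to 1135 CPM, and c19, led by Igfbp7 with Car4 and Kdr, from 263 to 930 CPM. The small c32, led by Ccl21a with Mmrn1, genes of lymphatic endothelium, stood at 505 and 532 CPM in 6 and 21 cells (0.07, -0.84 to 1.11).

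**Figure D4:**
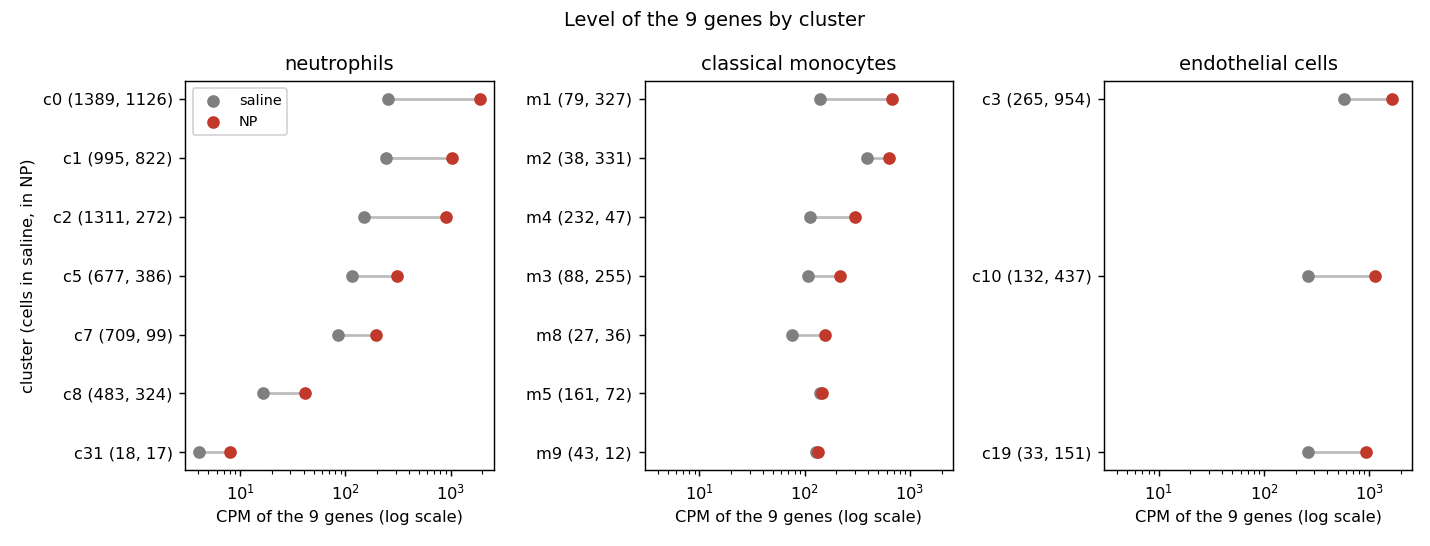
Level of the 9 genes added up in each cluster of neutrophils, classical monocytes and endothelial cells, in CPM on a log axis, grey saline and red NP, with the cells of each library in brackets. The endothelial cluster of 6 saline cells is not drawn; the span runs from 8.03 CPM in c31 to 1891 CPM in c0 of NP neutrophils, and m5 and m9 show nearly the same point for both libraries.

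Counted per cell, the share of cells with a detected transcript and the number of members detected per cell were higher in NP neutrophils and endothelial cells. Both measures rise with the level of the family and with depth. They do not separate more expressing cells from more transcripts per cell. Each cell was thinned to 1000 UMIs to set depth aside, which left out 8 saline and 2 NP neutrophils and 42 and 136 endothelial cells. A family UMI was then detected in 12.99% of the neutrophils from saline (12.1 to 13.9%), compared with 41.9% of those from NP (40.2 to 43.7%), and in 32.5% and 61.9% of endothelial cells. The share was 12.0% and 27.6% in classical monocytes, 29.2% and 36.1% in T cells, 32.3% and 31.2% in NK cells and 9.70% and 11.9% in B cells. At 1000 UMIs a cell no epithelial cell held one, out of 52 and 51, which allows a share of up to 6.85% and 6.98% with a UMI at that depth and sets no limit on the share that expresses the family. Without thinning the shares were 46.1% and 74.8% in neutrophils, at a median depth of 6052.5 and 5266.5 UMIs, 63.5% and 83.9% in endothelial cells, at 3045.5 and 3098 UMIs, and 21.2% and 31.4% in epithelial cells, at 13490.5 and 18829 UMIs. Among barcodes with fewer than 50 UMIs, which hold free RNA, the family stood at 101 and 446 CPM, so its background in NP was higher too. Subtracting this profile moved no family ratio in the 4 main classes beyond its counting interval. The share taken as free RNA was 13.6% in saline and 17.2% in NP classical monocytes, and 28.7% and 21.7% in non-classical monocytes. It was 2.95% in saline and 1.80% in NP neutrophils, and 5.41% and 3.28% in endothelial cells. Gbp4 stood at 10.3 and 83.7 CPM in the free RNA, above its 2.25 and 28.6 CPM in classical monocytes. Over the alternatives, which included subtracting the free RNA profile, the Gbp4 ratio ran from 2.42 to 4.14 in classical monocytes. In non-classical monocytes it ran from 1.25 to 2.72, with counts under 3 set to 3. The part of free RNA in these ratios was not tested further.

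At least 2 different members were found in 1.74% of thinned saline and 19.2% of NP neutrophils, and in 7.11% and 31.1% of endothelial cells. At least 4 were found in 4 saline and 84 NP neutrophils, with at most 6 in a cell, and in 71 NP endothelial cells, with at most 7, and no saline one. Without thinning, the 10% of neutrophils with most family UMIs held 49.5% of them in saline and 48.1% in NP. These counts are sparse, with a median of 0 and 2 family UMIs per cell, and depend on depth. They therefore do not measure how unevenly the family was expressed. Over cells of 1 library, which share depth and free RNA, the correlation of Gbp2 with Gbp2b was 0.65 in 3046 NP neutrophils and 0.26 in 5582 saline neutrophils, where counts are sparse.

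**Figure D5:**
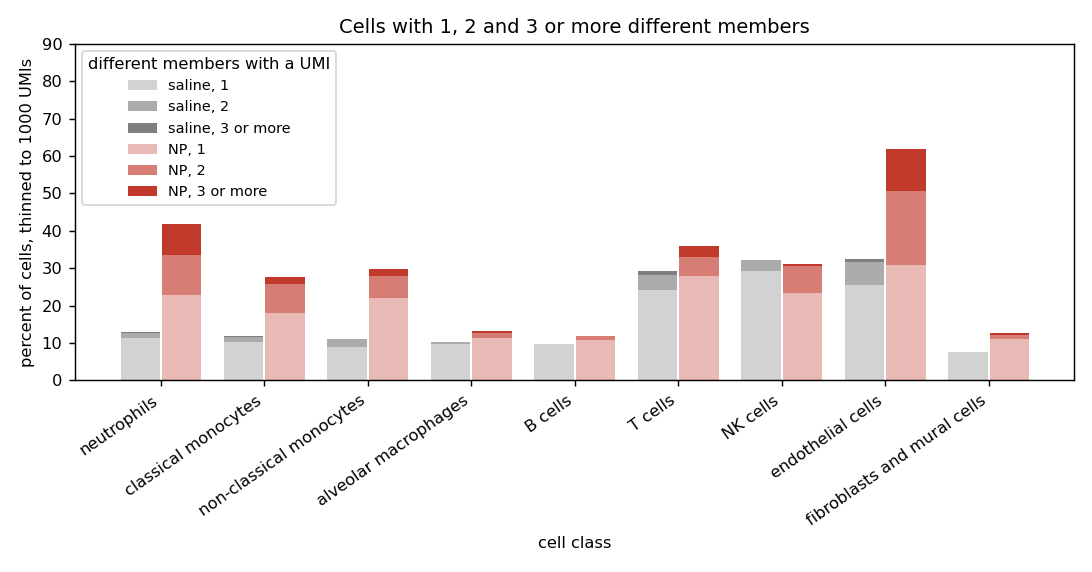
Percent of cells, thinned to 1000 UMIs, with a UMI of 1, 2 and 3 or more different members, stacked, in 9 classes, grey saline and red NP. NP neutrophils reach 41.9% and NP endothelial cells 61.9%, while the bars of NK cells are of near equal height.

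Genes with the most similar profile were sought over 20 profiles, the 10 classes in both libraries, as a description of points that share libraries and classes. Gbp2 and Gbp2b were each other's nearest member (r = 0.93), and outside the family Gbp2 was nearest to Fas (0.85) and Gbp2b to Il18bp (0.84). Gbp3 lay nearest to Parp14 (0.91) and Gbp5 to Tap1 (0.89), a peptide transporter of antigen presentation, and these 2 members lay nearest to each other (0.89). Gbp4 lay nearest to the class I gene H2-Q4 (0.93), Gbp9 to Nmi (0.94), Gbp7 to Tap2 (0.91), Gbp6 to the immunity-related GTPase Iigp1 (0.86) and Gbp8 to Pced1b (0.82).

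Genes of the same system were counted from lists written with earlier results of these data known. The immunity-related GTPases, partners of the family on microbial vacuoles, were at least 2-fold higher for 7 of 9 measured in neutrophils (median 2.78), 6 of 9 in classical monocytes (1.497), 3 of 9 in non-classical monocytes (0.57), 9 of 11 in endothelial cells (1.79) and 1 of 9 in T cells (0.46). Iigp1, which coats vacuoles, stood at 89.8 and 485 CPM in endothelial cells and had 8 and 32 UMIs in neutrophils, while classical monocytes had none and 362. Irgm1, a regulator of the effector GTPases, stood at 14.6 and 82.5 CPM in neutrophils. Among genes of interferon gamma signalling, 5 of 15 were at least 2-fold higher in neutrophils (median 0.24), 4 of 16 in classical monocytes (0.23) and 3 of 16 in endothelial cells (0.16). The transcription factor gene Irf1 (109 and 324 CPM) and the feedback inhibitor Socs1 (2.65) were among those of neutrophils, and the receptor gene Ifngr1 had the lowest ratio there (-0.57). Ifng itself had 148 and 256 UMIs in NK cells (223 and 278 CPM) and 56 and 76 in T cells, and at most 8 in any other named class of either library.

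Other interferon gamma targets were at least 2-fold higher for 11 of 23 in neutrophils (median 0.99), 9 of 23 in classical monocytes (0.88) and 9 of 24 in endothelial cells (0.83), with Cxcl9, a T-cell chemokine, at 2 and 478 UMIs in neutrophils and Nos2 lowest at -0.88. The type I interferon antiviral list had 19 of 23 in neutrophils (1.47), 8 of 24 in classical monocytes (0.84) and 4 of 24 in endothelial cells (0.39). Lists of inflammasome, autophagy and prenylation genes, whose products act with the family proteins, had medians between -0.31 and 0.13 in these classes. Inflammasome and pyroptosis genes had 0 of 13 at least 2-fold higher in neutrophils (median 0.00, highest Casp1 at 0.52), 0 of 14 in classical monocytes (0.13) and 1 of 10 in endothelial cells (0.12), where Naip2 was highest at 1.19. Autophagy genes that help to load the proteins on vacuoles had 0 of 14 in each of these classes, with medians of -0.04, -0.06 and -0.09. Prenylation enzymes, which attach the lipid anchor, had 0 of 10 in each, with medians of -0.31, -0.04 and 0.03, and Fntb, a farnesyltransferase subunit, was 2-fold lower in endothelial cells (-1.03). Dissociation stress genes had 0 of 15 in each (0.09, 0.07 and -0.09).

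Some members share sequence with another gene of the family, so that reads from such stretches could be assigned to more than 1 gene or to none. Of the windows of 50 bases in the last 500 bases of their transcripts, 42.3% recurred in another family gene for Gbp6, most of them in Gbp10, 14.2% for Gbp4, 7.29% for Gbp8, 4.28% for Gbp9, 3.55% for Gbp2, 2.82% for Gbp3 and none for Gbp2b, Gbp5 and Gbp7. Gbp6 is therefore uncertain. Gbp10, the neighbour of Gbp6 that is no member here, had 35 saline and 150 NP UMIs over all cells (2.20, 1.67 to 2.78), with 8 and 66 in endothelial cells, 14 and 27 in T cells and 4 and 17 in classical monocytes.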

How the data were processed

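Single-cell RNA sequencing of lung cells was available as 1 saline and 1 NP library (10x Genomics, whose capture end is not given in the sources used here). The authors aligned reads with Cell Ranger and deposited raw gene-by-barcode UMI counts. The submitters' processing notes name Cell Ranger 6.0, bcl2fastq and mm10, while the matrix header names Cell Ranger 4. The deposited counts summed to 91168129 (saline) and 90081747 (NP) UMIs.

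Cells with 500 to 5000 genes and under 7.5% mitochondrial UMIs were scaled to 10000, log transformed, and clustered on 2000 variable genes without the members and interferon lists (30 components, 20 neighbours, Leiden resolution 1), giving 33 clusters. Monocyte and macrophage clusters were split into 12 sub-clusters. A cluster took the class with the highest mean log2 fold over its markers if that was at least 1, with 3 markers detected, and stayed unnamed if a second class reached 0.75 of that score (not applied between the classical and non-classical monocytes) or had 3 of the 10 leading genes or more than the first, which left 7 unnamed. The study's cell labels were not used. Doublets were kept, since Scrublet marked 1 of 8662 saline cells, too few to have worked, and 311 of 8333 NP cells.

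Levels are pooled CPM with exact Poisson intervals, log2 ratios have exact conditional binomial intervals and shares Clopper-Pearson ones, all at 95%. A count under 3 was set to 3 in ratios unless given as counted, and a gene needed 20 UMIs over both libraries to be counted at 2-fold. With 1 library per group no test was made and no p-value is given. UMIs remove PCR copies, but the intervals cover counting error only. Steps were tested on simulated data. The tools were Python 3.11.15, numpy 2.4.6, pandas 2.3.3, scipy 1.17.1, scikit-learn 1.9.0, igraph 0.11.9, leidenalg 0.10.2, scanpy 1.11.5 and matplotlib 3.10.9. The members, marker and gene lists were chosen with earlier results of these data known. Named genes are all 9 members, the highest and lowest gene of each list and up to 4 more per class, the 3 nearest genes by profile, and up to 4 of the 10 leading genes of a cluster. Alternatives covered cell filters, clustering, scaling, doublets, free RNA and thinning.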

Additional observations from a re-analysis of the deposited data

Results flagged for a closer look

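The family was lower in NP than in saline in a pair of small classes, while in the 4 main classes it was higher. In plasmacytoid dendritic cells it had 38 UMIs in 18 saline and 31 in 34 NP cells, a log2 ratio of -1.33 (-2.07 to -0.61), in which Gbp4 had 13 and 1 UMIs. In mesothelial cells it had 242 UMIs in 36 saline and 38 in 13 NP cells, a ratio of -0.61 (-1.14 to -0.11). Gbp9 in NK cells had a ratio of -1.17 from 21 and 13 UMIs, against 2.34 in neutrophils. With 1 library per group these differences between classes were not tested.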

How the results depend on the processing

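With 1 library per group no replicate could be left out. No paired analysis was possible because each group is 1 library and no test was made. The ratio of each single member in the 4 main classes was compared with its main value under each alternative. Of these comparisons, 595 gave a value within the counting interval of the main ratio and 45 a value outside it. No ratio that was called changed sign. The NP minus saline share of cells with a family UMI was also taken at other depths. It lay within the limits at 1000 UMIs in 6 comparisons and outside them in 6. The neutrophil family ratio (2.52) was 2.26 with the saline make-up of clusters, 2.37 with classes from each cell's marker score, 2.69 with equal weight per cell, 2.66 with scaling to the median ratio and 2.67 with cells thinned to 1000 UMIs. The classical monocyte ratio (1.77) was 1.85 without the upper limit on genes, 1.10 with the saline make-up, 1.88 by marker score and 1.62 when thinned. The endothelial ratio (1.59) was 1.80 without Scrublet doublets, 1.73 by marker score and 1.69 when thinned. The count of members in non-classical monocytes (5 of 8) was 2 of 4 when thinned, where fewer genes reached 20 UMIs, and 3 at a fold of 4. In endothelial cells (8 of 9) it was 2 at a fold of 4. The share of all genes was not counted under these alternatives, so these counts cannot be set against it. Over all alternatives the family ratio stayed within 2.26 to 2.69, 1.10 to 1.88, 1.49 to 1.74 and 1.56 to 1.80 in neutrophils, classical monocytes, non-classical monocytes and endothelial cells. The cause of these shifts was not tested. The saline make-up and the removal of the highest doublet scores were chosen after seeing the data. A member under 20 UMIs gave no value. Few cells limit the non-classical monocytes (87 saline family UMIs) and epithelial cells (15).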

Other observations

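Cells whose cluster held markers of more than 1 class stayed unnamed and are given as values. Over all unnamed cells the family stood at 139 and 687 CPM (2.30). Cluster c16, with Ngp beside the endothelial genes Cldn5 and Cdh5 among its leading genes, stood at 182 and 969 CPM in 107 and 156 cells. Cluster m7, with Ngp beside the monocyte genes Ccr2 and F13a1, stood at 117 and 796 CPM in 21 and 58 cells. Cluster c27, led by Pdzd2 and Gucy1a1, stood at 169 and 760 CPM in 10 and 56 cells. Cluster m11, with Ccl5, Il4i1 and Fscn1 among its leading genes, held 31 NP cells, in which Gbp2 stood at 153 CPM and Gbp5 at 130 CPM, and 6 saline cells with 2 family UMIs.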
